A study of Homo sapiens with 8 samples.

Results

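The epithelial and mesenchymal identity genes are 10 genes, out of 31721 in the deposited expression table, that are commonly read to place a cell on the epithelial to mesenchymal axis. They were chosen by name, with Ensembl identifiers matched to symbols. The set has 7 genes of the mesenchymal side (VIM, CDH2, FN1, ZEB1, ZEB2, TWIST1 and SNAI2) and 3 of the epithelial side (CDH1, EPCAM and KRT8). A total of 5 of the 10 had a mean of at least 1 FPKM (fragments per kilobase of exon, scaled for the depth of each library, so a level per length) over the 8 libraries and entered the main test: VIM, TWIST1, SNAI2, ZEB1 and CDH2. The other 5 were weakly expressed, and 9 of the 10 reached 10 reads over the 8 libraries.

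The study used A2780, a human cell line established from ovarian carcinoma. The cells received 1 of 4 treatments for 24 h: the vehicle DMSO, olaparib (an inhibitor of the PARP enzymes of DNA repair), palbociclib (an inhibitor of the cell cycle kinases CDK4 and CDK6), or both drugs together, called the combination here and labelled Ola/PD. Each treatment has 2 libraries of polyadenylated RNA, which the labels number 1 and 2 and the design text calls biological repeats. The sources used here give no doses. All groups share the same single line, so the values describe A2780 and no other cells. Since nothing says whether the repeats came from separate cultures, p-values measure the spread between these libraries, which may be technical.

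Epithelial cells are held together by E-cadherin (CDH1) and by the adhesion molecule EPCAM, and their cytoskeleton contains keratins such as keratin 8 (KRT8). Mesenchymal cells instead carry vimentin filaments (VIM) and N-cadherin (CDH2) and deposit fibronectin (FN1) around themselves. The transcription factors SNAI2, TWIST1, ZEB1 and ZEB2 drive the switch from the first state to the second, and SNAI2, ZEB1 and ZEB2 are known to repress CDH1 by binding E-box sequences. Ovarian carcinoma cell lines are known to range from clearly epithelial to clearly mesenchymal.

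The libraries held between 20566158 and 34057055 reads assigned to genes, as recovered from the FPKM values. Both DMSO libraries were deeper (34057055 and 31183429 reads) than both combination libraries (20566158 and 24909592), and the part of depth in the results was not tested. The labels give the cells an epithelial morphology. Against that label, the summed level of the 8 measured epithelial markers (CDH1, EPCAM, KRT8, KRT18, KRT19, CLDN4, CLDN7 and ESRP1) lay between 0.687 and 1.72 FPKM in every library, and only EPCAM reached 1 FPKM in any. The 7 mesenchymal members summed to between 435.6 and 600.9 FPKM. Among ovarian and Müllerian markers, PAX8 had 2 reads in all 8 libraries together and FOLR1 reached at most 1.15 FPKM. Markers of other cell types were near 0: leukocyte genes reached at most 0.482 FPKM, endothelial genes 0.0169 FPKM and erythroid genes 0.328 FPKM. Of 5 fibroblast markers, DCN, LUM and PDGFRB were expressed, LUM at up to 49.1 FPKM, whereas FAP had 3 reads in all. In bulk RNA, fewer cells of a type and less RNA per cell cannot be told apart.

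Promoter sequences were available for VIM, CDH2, FN1, ZEB1, ZEB2 and KRT8, with 13 start sites in RefSeq (GRCh38.p14). The 250 bases before each start were searched on both strands for CAGGTG, an E-box that SNAI and ZEB factors bind; its reverse complement is CACCTG, and each match was counted once. It was present in 2 of the 13 windows, both among the 7 of ZEB1, and in none of the windows of the other 5 genes. Of all 35116 promoter windows of the same length 17.5% held it, so the count is near the background. A match is a description of letters and not a binding site. The window of VIM is shown because VIM was the most abundant member and changed with treatment, and that of ZEB1 (its most upstream start) because it holds the motif, given in capitals and beginning 57 bases before the start. VIM lies at chr10:17227991-17228240 and ZEB1 at chr10:31318167-31318416, both on the plus strand, and the ZEB1 window overlaps exons of the antisense RNA ZEB1-AS1.
VIM: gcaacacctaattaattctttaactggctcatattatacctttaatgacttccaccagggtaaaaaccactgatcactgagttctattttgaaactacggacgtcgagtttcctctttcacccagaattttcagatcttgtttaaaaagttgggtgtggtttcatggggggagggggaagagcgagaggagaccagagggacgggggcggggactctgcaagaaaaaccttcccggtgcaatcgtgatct
ZEB1: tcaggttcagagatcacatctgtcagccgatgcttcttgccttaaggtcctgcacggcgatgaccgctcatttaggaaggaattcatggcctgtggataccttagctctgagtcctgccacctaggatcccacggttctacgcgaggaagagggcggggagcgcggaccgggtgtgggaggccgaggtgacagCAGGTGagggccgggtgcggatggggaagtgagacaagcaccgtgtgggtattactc

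In DMSO the mesenchymal members ranged from above 25.7% of all genes in the table (ZEB2) to above 99.7% (VIM), and the epithelial members from above 12.1% (CDH1) to above 42.1% (EPCAM). VIM had the highest level, 250.4 ± 3.31 FPKM (SD, n = 2). TWIST1 followed with 152.1 ± 4.66 FPKM and SNAI2 with 30.5 ± 1.38 FPKM, above 99.3% and 94.6% of genes. ZEB1 had 6.49 ± 0.10 FPKM and CDH2 2.49 ± 0.17 FPKM. These 5 genes kept the same order in every library, and the ranges of neighbours over the 8 libraries did not overlap.

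Below 1 FPKM the order in DMSO was EPCAM, KRT8, FN1, ZEB2 and CDH1, and each level rests on few reads. The pooled DMSO libraries gave EPCAM 0.192 FPKM from 30 reads (95% exact Poisson interval 0.130 to 0.274), KRT8 0.143 FPKM from 61 reads (0.109 to 0.184) and FN1 0.102 FPKM from 110 reads (0.0842 to 0.123). The intervals of EPCAM and KRT8 overlapped, as did those of KRT8 and FN1, and whether these neighbours differed was not tested. ZEB2 lay lower, at 0.0499 FPKM from 68 reads (0.0388 to 0.0633). CDH1 had 2 reads in the pooled DMSO libraries, 0.00522 FPKM (0.000632 to 0.0189). Reads are not independent molecules, so these intervals cover counting error only.

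The pair of classical cadherins gives the contrast within 1 gene family. In DMSO, N-cadherin had 765 reads and E-cadherin 2, which per length of exon is a ratio of 477 (95% exact interval 132 to 3948). With olaparib CDH1 had 0 reads, which by the exact 95% interval allows up to 0.0115 FPKM over the 2 libraries, and CDH2 was at least 224-fold higher per length by the same interval. With palbociclib CDH1 had 1 read and the ratio was 1011 (181 to 39972). With the combination it had 3 reads and the ratio was 266 (90.7 to 1294). These intervals overlap, so a change of the ratio was not detectable at this depth.

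**Figure D1:**
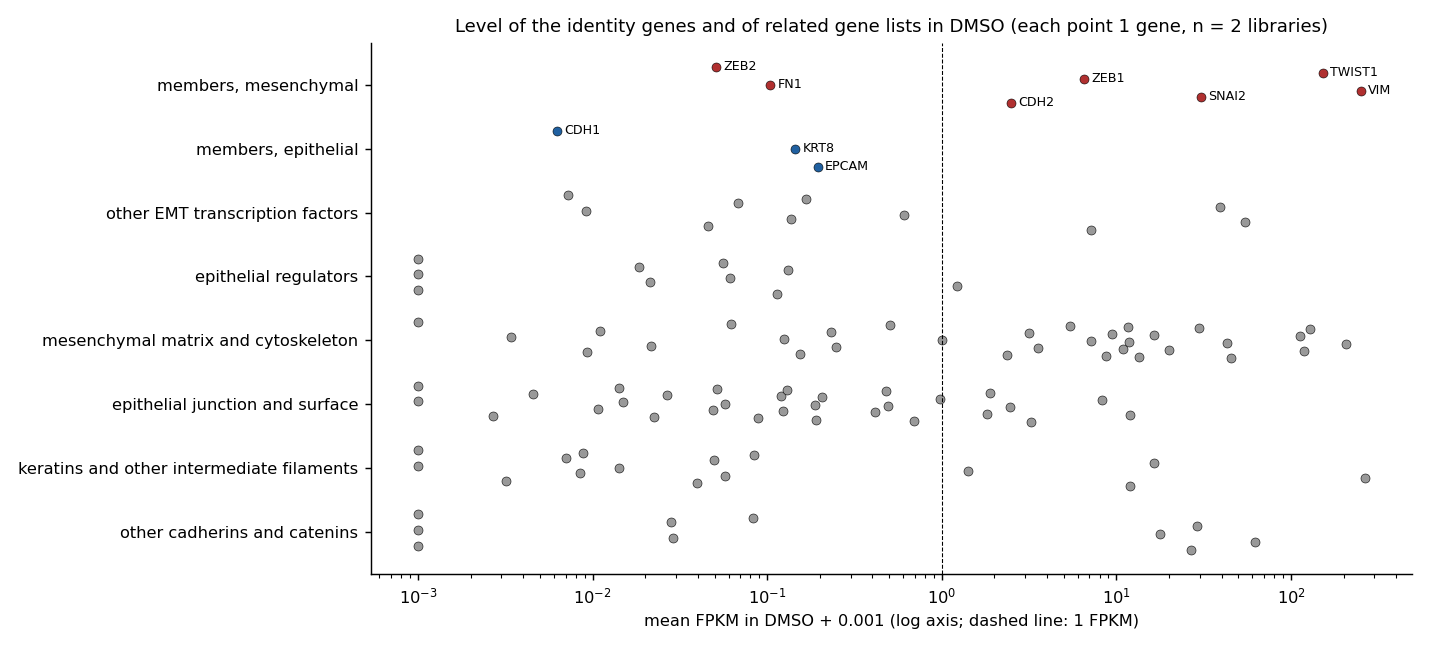
Mean FPKM in DMSO plus 0.001 (x axis, log scale, n = 2 libraries) of the 7 mesenchymal and 3 epithelial members and of the genes of 6 related lists (rows); each point is 1 gene and the dashed line marks 1 FPKM. VIM, TWIST1, SNAI2, ZEB1 and CDH2 lie right of the line and the other 5 members left of it, with CDH1 farthest left.

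Palbociclib, alone or with olaparib, was accompanied by VIM and SNAI2 levels 1.29- to 1.35-fold those of DMSO. TWIST1 rose by a similar factor with palbociclib alone, while its call in the combination and that of CDH2 with palbociclib were lost when single libraries were left out, with the values still positive. ZEB1 was not called higher in any treatment. The main test was limma on log2(FPKM + 1) over 12443 genes, with p-values adjusted over all of them by Benjamini-Hochberg and a threshold of 0.05. A fold change is on that scale and understates the change of low genes. With palbociclib, 4 of the 5 tested members rose and none fell, against 18.7% of all tested genes called higher and 31.4% called lower. With the combination 3 of 5 rose and none fell, against 21.5% higher and 35.3% lower. With olaparib limma called 0 of 5, with 0 of 5 at an unadjusted p below 0.05, against 4.13% of all genes higher and 10.5% lower. The median log2 fold change of the 5 was -0.06 with olaparib, 0.41 with palbociclib and 0.23 with the combination, beside medians of -0.03, -0.05 and -0.06 over all tested genes. With 2 libraries a group, non-overlapping groups are common: with palbociclib 32.5% of tested genes were higher and 46.3% lower in both libraries than in both DMSO libraries. With olaparib these shares were 23.3% and 38.6%, and with the combination 32.5% and 46.9%. Among the 24302 genes with at least 10 reads, 23.8% were higher with olaparib, 32.6% with palbociclib and 33.4% with the combination.

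Vimentin is the main intermediate filament protein of mesenchymal cells. VIM (ENSG00000026025, chr10:17228259-17237593, plus strand, GENCODE v29 on GRCh38) had 248.1 and 252.7 FPKM in DMSO, 243.4 and 236.7 under olaparib, 349.7 and 326.0 under palbociclib, then 339.7 and 339.2 in the combination. The 4 libraries with palbociclib were all above the 4 without it, and both olaparib libraries were slightly below both DMSO libraries. The log2 fold change against DMSO was 0.43 ± 0.04 (SE) with palbociclib (limma adjusted p = 0.000266), a 1.35-fold rise with a 95% interval of 1.26 to 1.44. It was 0.44 ± 0.04 with the combination (limma adjusted p = 0.000159). Both calls were kept in 8 of 8 fits that each left out 1 library. With olaparib it was -0.06 ± 0.04 (limma adjusted p = 0.374), a value whose sign turned to 0.10 with quantile normalization. The antisense gene VIM-AS1 overlaps exons of VIM and had a mean of 0.839 FPKM. The sources used here do not say whether reads were counted by strand.

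N-cadherin joins mesenchymal and neural cells to each other. CDH2 (ENSG00000170558, chr18:27950966-28177446, minus strand) had 2.60 and 2.37 FPKM in DMSO, 2.69 and 2.49 under olaparib, 3.0002 and 3.066 under palbociclib, then 2.58 and 2.80 in the combination. Both palbociclib libraries lay above both DMSO libraries, while of the olaparib libraries and of the combination libraries 1 lay above and 1 between them. The log2 fold change with palbociclib was 0.21 ± 0.07 (limma adjusted p = 0.0311), a 1.16-fold rise (1.04 to 1.29). The call was lost without DMSO replicate 2 (limma adjusted p = 0.164), without palbociclib replicate 1 (0.0869) and without palbociclib replicate 2 (0.12). It was also lost with quantile normalization and with no FPKM minimum. With the combination the value was 0.08 ± 0.07 (limma adjusted p = 0.312), and with FPKM rescaled to a common sum per library the gene was called higher there too.

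Fibronectin is a matrix glycoprotein and a standard marker of the mesenchymal state. FN1 (ENSG00000115414, chr2:215360440-215436172, minus strand) was far below the minimum of the main test, at 0.0959 and 0.110 FPKM in DMSO, 0.220 and 0.188 under olaparib, 0.289 and 0.214 under palbociclib, then 0.179 and 0.209 in the combination. These levels rest on 54 and 56 reads in DMSO and on 68 to 118 reads in the treated libraries. All 6 treated libraries were above both DMSO libraries, although all remained below 0.3 FPKM.

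To test such weak genes, limma's voom was run on the recovered reads of the 24302 genes with at least 10 reads, a choice made after the data were seen. FN1 rose in each treatment by voom. The log2 fold change was 0.98 ± 0.22 with olaparib (voom adjusted p = 0.00172), 1.24 ± 0.21 with palbociclib (8.85e-06) and 0.93 ± 0.22 with the combination (0.000867). Leaving out DMSO replicate 1 took the olaparib value to 0.87 and its voom adjusted p to 0.0507, and the palbociclib and combination calls held in 8 of 8 such fits. Over all genes voom called 4.44% higher and 7.83% lower under olaparib. The shares were 14.4% and 17.7% under palbociclib and 16.6% and 19.4% in the combination. Of the 9 members with enough reads, voom called 2 higher with olaparib (FN1 and TWIST1), 6 higher with palbociclib (VIM, SNAI2, TWIST1, CDH2, FN1 and EPCAM) and 5 higher with the combination (those without CDH2). It called 1 lower, ZEB1 with the combination.

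**Figure D2:**
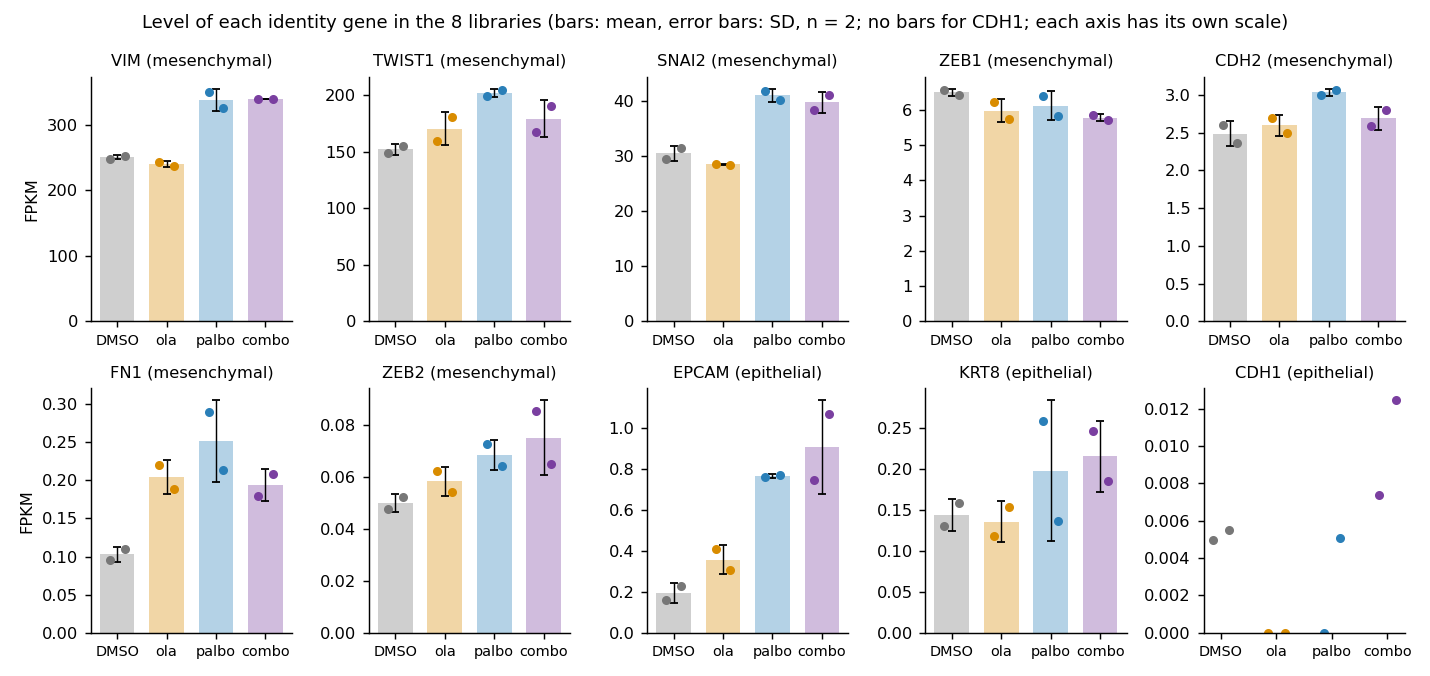
FPKM (y axis, starting at 0 and scaled for each gene) of the 10 members in the 4 treatments (ola, olaparib; palbo, palbociclib; combo, combination); points are libraries, bars means and error bars SD (n = 2), with points only for CDH1. VIM and SNAI2 are higher in the 4 libraries with palbociclib than in the 4 without it, and EPCAM climbs from at most 0.229 FPKM in DMSO to between 0.743 and 1.07 FPKM in those 4.

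Among the transcription factors, SNAI2 moved with VIM. SNAI2, also called Slug, is a zinc finger repressor of epithelial genes. SNAI2 (ENSG00000019549, chr8:48917604-48921740, minus strand) had 29.5 and 31.5 FPKM in DMSO, 28.5 and 28.4 under olaparib, 41.8 and 40.1 under palbociclib, then 38.4 and 41.0 in the combination. As for VIM, every library with palbociclib was above every library without it. The log2 fold change was 0.42 ± 0.05 with palbociclib (limma adjusted p = 0.000498), a 1.33-fold rise (1.23 to 1.44). With the combination it was 0.37 ± 0.05 (limma adjusted p = 0.000577), a 1.29-fold rise (1.20 to 1.40). Both calls held in 8 of 8 fits with 1 library left out. With olaparib it was -0.10 ± 0.05 (limma adjusted p = 0.22).

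TWIST1, a basic helix-loop-helix factor of mesoderm development, was the second most abundant member. TWIST1 (ENSG00000122691, chr7:19020991-19117672, minus strand) had 148.8 and 155.4 FPKM in DMSO, 160.0 and 181.1 under olaparib, 199.7 and 204.7 under palbociclib, then 167.8 and 191.0 in the combination. All 6 treated libraries were above both DMSO libraries, and the palbociclib libraries were the highest. The log2 fold change was 0.41 ± 0.08 with palbociclib (limma adjusted p = 0.00426), a 1.33-fold rise (1.17 to 1.51) that held in 8 of 8 fits without 1 library. With the combination it was 0.23 ± 0.08 (limma adjusted p = 0.0354), a call that held in 3 of 8 such fits. It was lost without DMSO replicate 1 (0.15), DMSO replicate 2 (0.0773), palbociclib replicate 1 (0.0564), palbociclib replicate 2 (0.0561) or combination replicate 2 (limma adjusted p = 0.167), and with no FPKM minimum. Over the 8 fits the value ranged from 0.14, without combination replicate 2, to 0.33. With olaparib it was 0.16 ± 0.08 by limma (adjusted p = 0.196), whereas voom called the same change of 0.17 ± 0.05 (adjusted p = 0.0156). That voom call was lost without DMSO replicate 1, DMSO replicate 2 or olaparib replicate 2, which took the value to 0.07. The antisense gene AC003986.2 overlaps TWIST1 exons and had a mean of 1.52 FPKM.

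The ZEB factors are zinc finger and homeobox repressors that stand opposite the miR-200 family in the switch between the states. ZEB1 (ENSG00000148516, chr10:31318495-31529814, plus strand) had 6.56 and 6.42 FPKM in DMSO, 6.21 and 5.74 under olaparib, 6.40 and 5.83 under palbociclib, then 5.84 and 5.70 in the combination. Every treated library was below both DMSO libraries. The largest difference, with the combination, was -0.15 ± 0.06 (limma adjusted p = 0.0571) and did not pass the limma threshold. By voom it was -0.17 ± 0.06 (adjusted p = 0.0305), a call lost without DMSO replicate 1 (0.155), DMSO replicate 2 (0.0707) or combination replicate 2 (voom adjusted p = 0.128). With olaparib and palbociclib the limma values were -0.10 ± 0.06 (adjusted p = 0.242) and -0.08 ± 0.06 (adjusted p = 0.294). ZEB1-AS1, antisense to ZEB1, had a mean of 1.33 FPKM.

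ZEB2 (ENSG00000169554, chr2:144364364-144524583, minus strand) had between 32 and 45 reads in every library, at 0.0476 and 0.0524 FPKM in DMSO, 0.0623 and 0.0543 under olaparib, 0.0726 and 0.0642 under palbociclib, then 0.0853 and 0.0648 in the combination. The treated libraries were all above the DMSO libraries, but no difference passed the test. The log2 fold change with the combination was 0.56 by voom with a 95% interval of 0.003 to 1.11 (adjusted p = 0.115). With palbociclib the interval was -0.12 to 0.99 (voom adjusted p = 0.242). Per length, ZEB1 was 68.4 to 138 times as abundant as ZEB2 across the 8 libraries.

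On the epithelial side EPCAM was the gene that changed. EPCAM is a homophilic adhesion molecule of the epithelial surface. EPCAM (ENSG00000119888, chr2:47345158-47387601, plus strand) had 0.159 and 0.229 FPKM in DMSO, 0.407 and 0.306 under olaparib, 0.760 and 0.772 under palbociclib, then 0.743 and 1.07 in the combination. The reads behind these values were 13 and 17, 24 and 22, 42 and 62, and 41 and 70. The 3 treatments were each above DMSO with no overlap, and the 4 libraries with palbociclib were above both olaparib libraries. By voom the log2 fold change was 1.99 ± 0.34 with palbociclib (adjusted p = 1.43e-05), a 3.96-fold rise (2.44 to 6.42). With the combination it was 2.22 ± 0.34 (voom adjusted p = 1.65e-06), a 4.67-fold rise (2.89 to 7.56). With olaparib it was 0.87 ± 0.38 and did not pass (voom adjusted p = 0.159). The palbociclib and combination calls held in 8 of 8 fits without 1 library, and limma on log2(FPKM + 1) with no FPKM minimum called EPCAM in both as well.

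In each treatment other than DMSO, EPCAM stood above the intervals of all other weak members. In DMSO its Poisson interval overlapped that of KRT8. With olaparib, where its change was not called, the pooled level was 0.352 FPKM (0.257 to 0.469), above FN1 at 0.202 (0.174 to 0.234). With palbociclib the pooled level was 0.767 FPKM (0.627 to 0.929), above KRT8 at 0.186 (0.145 to 0.236) and FN1 at 0.245 (0.214 to 0.278). With the combination it was 0.920 FPKM (0.757 to 1.11). Even so, EPCAM stayed below CDH2, the least abundant of the 5 tested members, in every library.

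Keratin 8 is the main type II keratin of simple epithelia. KRT8 (ENSG00000170421, chr12:52897187-52949954, minus strand) had 0.130 and 0.157 FPKM in DMSO, 0.118 and 0.153 under olaparib, 0.258 and 0.137 under palbociclib, then 0.246 and 0.184 in the combination, from 19 to 39 reads. Of the palbociclib libraries 1 lay within the DMSO range and 1 above it, and both combination libraries were above it. The largest log2 fold change against DMSO was 0.56 with the combination by voom, with a 95% interval of -0.07 to 1.19 (adjusted p = 0.168), so no change was detectable at this depth. In each library 20 pseudogenes of the gene (KRT8P) together took 205 to 295 reads, more than KRT8 itself. The KRT8 values are uncertain, and whether reads were exchanged between KRT8 and these copies was not tested. KRT18, the keratin partner, overlaps KRT8 exons on the opposite strand and had a mean of 0.0952 FPKM.

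E-cadherin is the adhesion receptor of adherens junctions and the defining epithelial gene. CDH1 (ENSG00000039068, chr16:68737225-68835548, plus strand) had 1 read in each DMSO library, 0 in both olaparib libraries, 0 and 1 under palbociclib, then 1 and 2 in the combination. This makes 6 reads in all, and the highest level was 0.0124 FPKM. No difference between treatments was tested or detectable with these counts.

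With palbociclib and with the combination, the summed levels of the mesenchymal members and of the epithelial markers were both above DMSO in every library, at very different scales. The 7 mesenchymal genes summed to 435.6 and 448.5 FPKM in DMSO, 441.0 and 454.7 under olaparib, 600.9 and 580.1 under palbociclib, then 554.6 and 580.0 in the combination. With olaparib these sums overlapped those of DMSO. The 8 epithelial markers, 3 of them members, summed to 0.807 and 0.687 FPKM in DMSO, 1.01 and 1.05 under olaparib, 1.52 and 1.44 under palbociclib, then 1.65 and 1.72 in the combination. These sums are descriptions: VIM and TWIST1 make up most of the first, and EPCAM the largest part of the rise of the second.

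**Figure D3:**
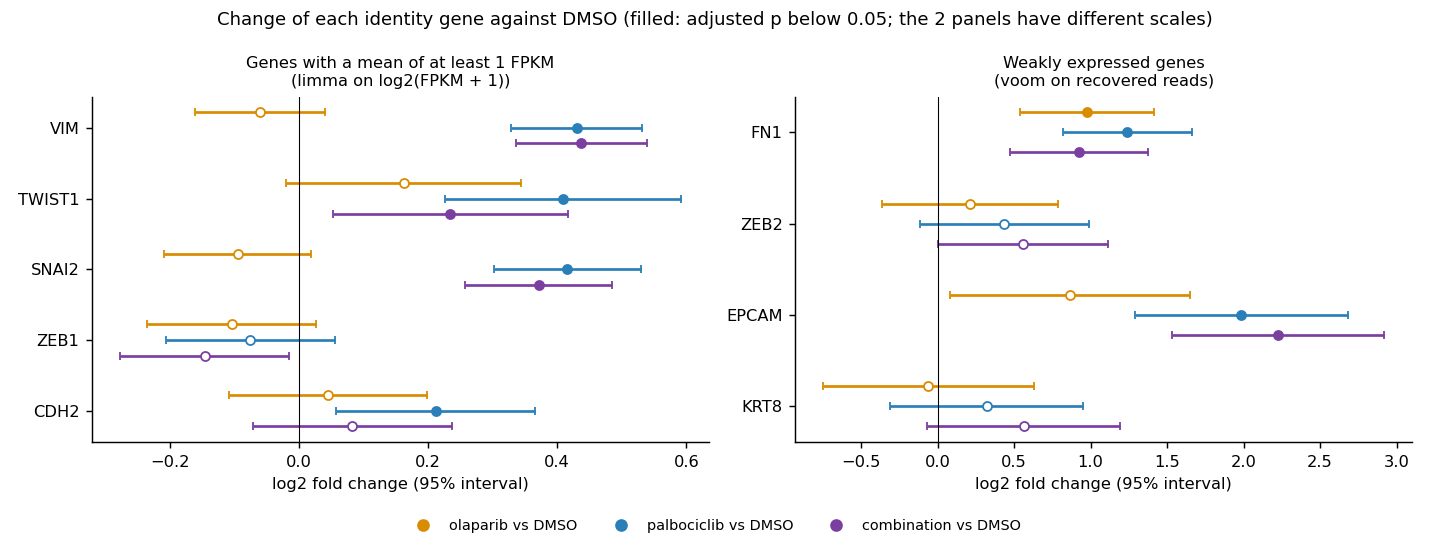
Log2 fold change against DMSO (x axis, with 95% interval) of the 5 members in the main limma test (left) and of 4 weak members by voom (right), in olaparib, palbociclib and the combination; filled points have an adjusted p below 0.05, and the panels have different scales. VIM and SNAI2 show filled points between 0.37 and 0.44 with palbociclib and the combination, and EPCAM filled points at 1.99 and 2.22.

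The combination was next compared with each drug alone. Against olaparib, limma called 2 of the 5 tested members higher, against 17% of all tested genes. VIM was higher by 0.50 ± 0.04 (limma adjusted p = 0.000232) and SNAI2 by 0.47 ± 0.05 (limma adjusted p = 0.000443), and both held in 8 of 8 fits without 1 library. TWIST1 differed by 0.07 ± 0.08 (limma adjusted p = 0.48), but with quantile normalization by 0.24, which passed (limma adjusted p = 0.0266). By voom EPCAM was higher by 1.36 ± 0.30 (adjusted p = 0.000491), where 11.5% of all genes were called higher. FN1 differed by -0.05 with a 95% interval of -0.45 to 0.35 (voom adjusted p = 0.888).

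Against palbociclib the combination showed no called difference in any member. Limma called 0 of 5, none at an unadjusted p below 0.05, and voom 0 of 9, with TWIST1 at an unadjusted p of 0.000902 (voom adjusted p = 0.0583); over all genes limma called 0.0241% and voom 1.37% in either direction. The 95% interval of the difference was -0.09 to 0.11 for VIM and -0.16 to 0.07 for SNAI2, by limma on the log2 scale. For TWIST1 the difference was -0.17 ± 0.08 (limma adjusted p = 0.32), and both combination libraries were below both palbociclib libraries. Such a gap is common, as 29.1% of all tested genes were lower in this way and 18.1% higher. For EPCAM the interval was -0.25 to 0.72, by voom.

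Whether the drugs added up on the log2 scale was tested by the difference between the olaparib effect with and without palbociclib. By limma 0 of 5 members departed from additivity, 1 of them (TWIST1) at an unadjusted p below 0.05, and 0.00804% of all tested genes, a single gene, were called. TWIST1 gave -0.34 ± 0.11 (limma adjusted p = 0.447). By voom TWIST1 gave -0.34 ± 0.07 (adjusted p = 0.00843) and FN1 -1.29 ± 0.29 (adjusted p = 0.0241), where 0.416% of all genes were called lower. Both values mean that the combination lay below the sum of the single-drug changes. When voom was restricted to the 12443 genes of the main test, TWIST1 did not pass (adjusted p = 0.0658). The FN1 call by voom was lost without DMSO replicate 1 (adjusted p = 0.294), DMSO replicate 2, palbociclib replicate 1 or combination replicate 1. The TWIST1 call was lost without DMSO replicate 1, olaparib replicate 2, palbociclib replicate 1 or palbociclib replicate 2 (adjusted p = 0.281).

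The wider gene lists put the members in context. The list of mesenchymal matrix and cytoskeleton genes holds 32 genes, all in the table, of which 21 were tested and 13 were above 10 FPKM in DMSO. Its most abundant genes in DMSO were MYL9, a myosin light chain (205.4 FPKM), ITGAV, the integrin alpha V chain (127.9 FPKM), and TPM2, a tropomyosin (119.4 FPKM). With palbociclib 10 of 21 rose and none fell, beside the 18.7% and 31.4% of all tested genes. The median log2 fold change of the list was 0.16, against -0.05 for all tested genes. CALD1, the actin regulator caldesmon, rose from 29.6 ± 1.796 to 43.9 ± 1.83 FPKM (SD, n = 2), or 0.55 ± 0.06 on the log2 scale (limma adjusted p = 0.000434). LOXL2, a collagen-crosslinking enzyme, rose from 13.4 ± 0.0883 to 19.4 ± 0.380 FPKM, or 0.50 ± 0.04 (limma adjusted p = 0.000133). The count of risers was between 7 and 11 when 1 library was left out.

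With the combination 9 of the 21 rose and 2 fell, beside 21.5% of all tested genes higher and 35.3% lower, with a list median of 0.08 against -0.06. LOXL2 rose by 0.46 and ITGAV by 0.44. The 2 that fell, ACTA2 (-0.41 ± 0.10, limma adjusted p = 0.0102) and CNN1 (-0.23 ± 0.07, limma adjusted p = 0.0212), encode smooth muscle actin and calponin, both contractile proteins. The count of risers was between 8 and 10 without 1 library, while the count that fell ranged from 0 to 3. With olaparib 3 rose and 2 fell, beside 4.13% higher and 10.5% lower over all tested genes, so the count that fell is near the background. AXL, a receptor tyrosine kinase, rose by 0.39 and FBN1, the microfibril protein fibrillin, by 0.23. POSTN, the matrix protein periostin, fell by 0.32 and ITGB1, the integrin beta 1 chain, by 0.15. Without either DMSO library, or without olaparib replicate 2, both olaparib counts went to 0; voom on the same genes gave 9 lower.

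Of 12 other transcription factors linked to the mesenchymal switch, 10 were in the table and 4 were tested. TCF3, an E-protein partner of TWIST1, had 39.1 FPKM in DMSO and TCF4, another E-protein, 7.15 FPKM. Palbociclib and the combination each had 2 higher and 1 lower, beside 18.7% and 31.4% of all tested genes with palbociclib and 21.5% and 35.3% with the combination, so the lower count is near the background. SNAI3, a relative of SNAI2, is 1 of the 2 higher genes in each, at 0.608 FPKM in DMSO, 0.974 with olaparib, 1.798 with palbociclib and 1.733 in the combination. It reached the FPKM minimum only through the last 2 groups, so its call and its place in the count are a description and no support. TCF3 fell by 0.29 with palbociclib (limma adjusted p = 0.0139) and by 0.47 with the combination (0.00139), and the palbociclib call was lost with quantile normalization, with no FPKM minimum, or without DMSO replicate 2 or either palbociclib library. With olaparib limma called 0 of 4, with 1 at an unadjusted p below 0.05, and voom on the same genes 0. Limma called 4.13% of all tested genes higher with olaparib and 10.5% lower. SNAI1, the founding member of its family, was below the minimum with 75 reads in all.

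The epithelial regulators and junction genes were mostly silent. Of 10 measured epithelial regulators 7 were under 0.1 FPKM in DMSO and only FOXA1 (1.21 FPKM) was tested, with 0 calls by limma or voom and 0 at an unadjusted p below 0.05. GRHL3 and GRHL1, grainyhead factors, had 0.130 and 0.113 FPKM. Of the 6 weaker regulators with at least 10 reads, voom called 1 higher in each treatment and none lower, beside 4.44%, 14.4% and 16.6% of all genes higher under olaparib, palbociclib and the combination. The counts under palbociclib and the combination are near these shares. GRHL3 rose with olaparib by 1.25 ± 0.36 (voom adjusted p = 0.0166). ESRP2, an epithelial splicing regulator, rose from 0.0603 FPKM with palbociclib by 1.13 ± 0.42 (voom adjusted p = 0.0363) and with the combination by 1.14 ± 0.43 (0.0338), and was named after its values were seen. GRHL3 had 14 to 33 reads a library and ESRP2 8 to 23. Of 30 junction and surface genes 6 were tested and 13 were under 0.1 FPKM in DMSO. With palbociclib 1 of 6 rose and 2 fell, and with the combination 1 rose and 3 fell. Over all tested genes 18.7% were higher and 31.4% lower under palbociclib and 21.5% and 35.3% in the combination, so counts this small do not set these 6 genes apart. CGN, the tight junction protein cingulin, fell by 0.38 with palbociclib (limma adjusted p = 0.000298) and by 0.32 with the combination (0.000401), and was called higher by 0.17 with olaparib (limma adjusted p = 0.0316). TJP1, a tight junction scaffold, had 11.9 FPKM in DMSO and fell by 0.16 with the combination. LLGL2, a polarity protein, rose by 0.35 in both treatments with palbociclib, but its palbociclib call was lost without any 1 DMSO or palbociclib library, and its combination call without DMSO replicate 2 or combination replicate 2. The CGN rise with olaparib was lost without any 1 DMSO, olaparib or palbociclib library.

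Some junction genes with a mean under 1 FPKM were called by voom, as EPCAM was. Among the 22 such genes with at least 10 reads, 2 were higher with olaparib, 3 higher and 1 lower with palbociclib, and 4 higher and 4 lower with the combination. Over all genes voom called 4.44% higher and 7.83% lower under olaparib, 14.4% and 17.7% under palbociclib, and 16.6% and 19.4% in the combination. The counts of higher genes under palbociclib and both counts in the combination are near these shares. F11R, the junctional adhesion molecule A, had 0.476 FPKM in DMSO, 0.745 with olaparib, 1.12 with palbociclib and 1.27 with the combination. Its log2 fold change was 1.22 ± 0.18 with palbociclib (voom adjusted p = 9.01e-07) and 1.42 ± 0.18 with the combination (3.25e-08). AP1M2, an epithelial adaptor subunit for basolateral sorting, went the other way, from 0.969 to 0.427 and 0.428 FPKM (-1.15 and -1.18). F11R and AP1M2 were named after their values were seen.

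Among keratins and other intermediate filaments, 15 genes were in the table, 11 of them under 0.1 FPKM in DMSO. NES, the progenitor filament nestin, had 265.6 FPKM in DMSO, a level close to that of VIM, KRT10 had 16.5 FPKM and SYNM, synemin, 11.9 FPKM. NES was not called higher in any treatment. It had 248.7 FPKM with palbociclib (-0.09 ± 0.05, limma adjusted p = 0.123) and fell by 0.25 with the combination (limma adjusted p = 0.00265). KRT10, a keratin known from skin, fell by 0.30 with palbociclib (limma adjusted p = 0.00437) and by 0.34 with the combination (0.0022). With olaparib limma and voom called 0 of 4, and 0 had an unadjusted p below 0.05. Limma called 4.13% of all tested genes higher with olaparib and 10.5% lower. Of 9 weaker genes with at least 10 reads, voom called 2 higher and 1 lower with the combination, and 0 with either drug alone. Over all genes voom called 16.6% higher and 19.4% lower in the combination, so these counts do not set the list apart. KRT5 and KRT6A rose from 0 FPKM in DMSO to 0.184 and 0.264 FPKM (5.65 ± 1.39 and 5.62 ± 1.26), on at most 22 reads a library. GFAP fell (-2.40 ± 0.90). KRT5, KRT6A and GFAP were named after their values were seen.

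Of 10 other cadherins and catenins, 4 were tested, all of them catenins. CTNNB1 (61.9 FPKM in DMSO), CTNNA1 (28.7 FPKM) and JUP (26.8 FPKM) were the most abundant, and they link cadherin tails to actin or keratin. With palbociclib CTNNA1 rose by 0.11 ± 0.04 (limma adjusted p = 0.0394), a call lost without either DMSO or either palbociclib library. Limma called 0 of 4 with olaparib and 0 of 4 with the combination, each with 1 at an unadjusted p below 0.05, and voom on the same genes 1 and 0. In the combination, quantile normalization and rescaling to a common sum called all 4 higher. Over all tested genes, 46.7% and 57.4% of the combination calls were higher under these, against 37.8% in the main test. The other 6 genes, among them CDH3, CDH6 and CDH11, were under 0.1 FPKM in DMSO.

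**Figure D4:**
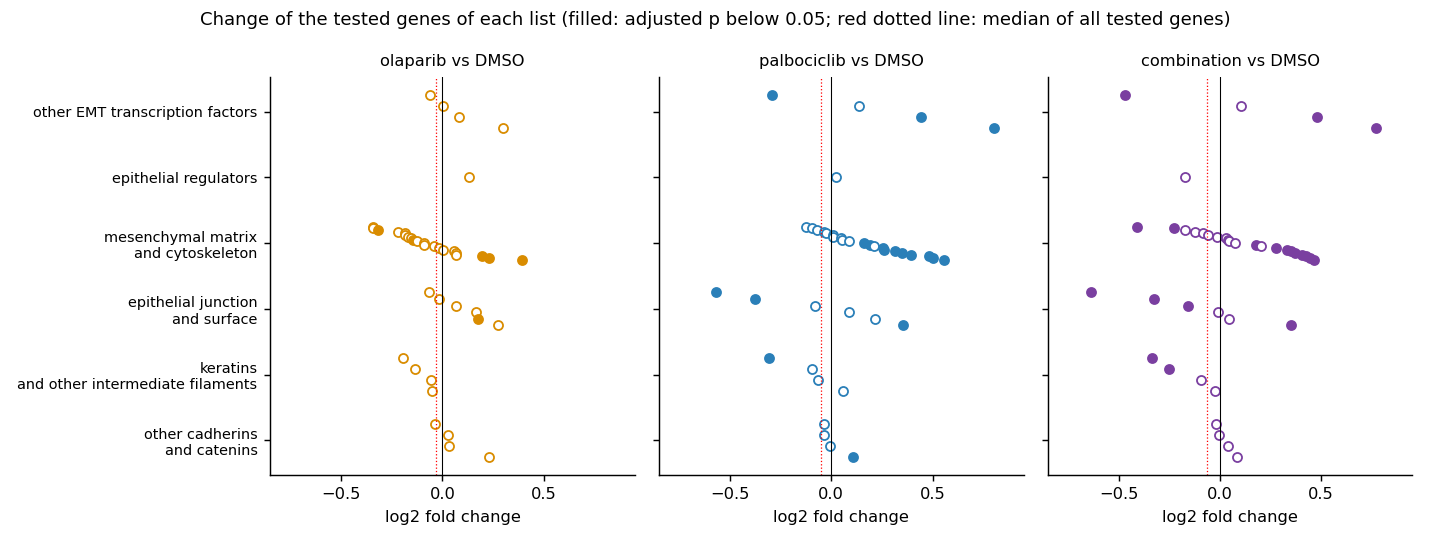
Log2 fold change against DMSO (x axis) of the tested genes of the 6 related lists (rows) in each treatment (panels); each point is 1 gene, filled where the limma adjusted p is below 0.05, and the red dotted line is the median of all tested genes. Of the 21 mesenchymal matrix and cytoskeleton genes 3 are filled right of 0 with olaparib, 10 with palbociclib and 9 with the combination.

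The genes whose profile over the 8 libraries was most like that of each called member were found by the root mean square distance of centred log2(FPKM + 1) values. CD59, an inhibitor of complement, was nearest to both VIM (distance 0.0288) and SNAI2 (0.0344), where the median tested gene was 0.279 from VIM and 0.271 from SNAI2. The second nearest were LGR4, an R-spondin receptor, for VIM (0.0326) and SYNPO2, an actin-binding protein, for SNAI2 (0.0398). CD59 had 9.29 FPKM in DMSO and 13.2 with palbociclib. For TWIST1 the nearest were PLPPR3 (0.039) and PPP1R12C (0.0407), with a median of 0.214 over all tested genes. For CDH2 they were BRI3 (0.0344) and EIPR1 (0.0355), with a median of 0.162.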

How the data were processed

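RNA of 8 A2780 libraries (4 treatments, 2 each) was read from 1 table of FPKM values that the authors deposited, without counts. Per the submitters' processing notes, the builds were GRCh38 and hg38 and the tools HTSeq 0.6.0, STAR 2.5.1b and CASAVA 1.8. Symbols, positions and exon lengths came from GENCODE release 29. Reads were recovered from the FPKM steps: 28635 genes (90.3%) gave whole reads, within 0.01 reads, with the annotated exon length, and the other 3086 (among them VIM, ZEB2 and SNAI2) with a searched length. The main test was limma 3.58.1 (R 4.3.3) with trend on log2(FPKM + 1), genes with a mean of at least 1 FPKM, 4 groups in 1 fit, no block, two-sided, Benjamini-Hochberg over 12443 genes. With 2 libraries a group an exact permutation test could not go below p = 0.333. Alternatives were quantile normalization, rescaling to TPM, a pseudocount of 0.1, no minimum, voom, a replicate block and leaving out each library. Voom on genes with at least 10 reads was added after the data were seen. Fits were also run on simulated data. Changes were planted there only in genes with a mean of at least 1 FPKM, and were larger than those limma called in the members. These runs cover neither the weak genes nor changes of that size, and their outcome is not given here.

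The members, lists and tests were chosen with earlier results of these data known. All members are named. From each list the text names the 3 genes highest in DMSO and, in each treatment against DMSO, up to 2 called genes with the highest and up to 2 with the lowest log2 fold change, and for each called member the 2 nearest profiles. Some genes that this rule selects are not reported here. Figures were drawn with matplotlib 3.10.9.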

Additional observations from a re-analysis of the deposited data

Results flagged for a closer look

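In 2 members the effect of olaparib differed between cells with and without palbociclib by a test of the difference itself, in voom on genes with at least 10 reads. For FN1 the difference was -1.29 on the log2 scale (voom adjusted p = 0.0241): olaparib alone lay 0.98 above DMSO, whereas the combination stood at -0.31 against palbociclib. FN1 was below the minimum of the limma test. For TWIST1 the difference was -0.342 (voom adjusted p = 0.00843), with olaparib 0.17 above DMSO and the combination at -0.17 against palbociclib. The limma test gave TWIST1 nearly the same size and did not pass (adjusted p = 0.447). Both voom calls were lost in 4 of 8 fits that left out 1 library.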

How the results depend on the processing

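The VIM and SNAI2 calls with palbociclib, with the combination and between the combination and olaparib held under every alternative run. The limits are few libraries, few reads for FN1, ZEB2, CDH1, EPCAM and KRT8, and a table scaled by the authors. Of the calls over all tested genes, 28.2% were higher with olaparib, against 60.1% with quantile normalization and 66.5% with TPM. With palbociclib these shares were 37.3%, 46.7% and 56.1%, and with the combination 37.8%, 46.7% and 57.4%. The median gene moved with the combination from -0.06 to 0.06 with TPM.

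Members called with olaparib were 0 by limma, 1 by voom and 2 by voom on genes with at least 10 reads; with the combination the last gave 6 in place of 3, and for additivity 2 in place of 0. Without 1 library they were 3 to 4 with palbociclib, 2 to 3 with the combination and 2 in each fit against olaparib. All genes called with olaparib were 1821, 995 with quantile normalization, 601 with no minimum, 3180 by voom, 2984 by voom on genes with at least 10 reads, and 13 to 1956 without 1 library (13 without DMSO replicate 1). Between the combination and palbociclib they were 3, 17 with quantile normalization, 12 with TPM, 23 with no minimum, 289 and 334 by the voom fits, and 0 to 2 without 1 library. For additivity they were 1, 33 with no minimum, 50 and 117 by the voom fits, and 0 to 2 without 1 library. The cause of these differences was not tested.

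Repeats with the same number did not deviate together (correlations -0.047 to 0.034). The replicate block called 0 genes for additivity and added ZEB1 to the members called with the combination.

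The values that changed sign were all uncalled. VIM with olaparib became 0.0977 with quantile normalization and 0.00279 with TPM, and VIM additivity became -0.0392 with quantile normalization. CDH2 in the combination against olaparib became -0.0202 and SNAI2 against palbociclib 0.00994 with quantile normalization. ZEB1 became 0.0151 with palbociclib and 0.026 in the combination against olaparib with TPM.

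Without 1 library, limma gave these ranges. In the combination against palbociclib VIM was -0.0429 to 0.0581 and SNAI2 -0.091 to 0.00225. In the combination against olaparib CDH2 was -0.00328 to 0.0798, ZEB1 -0.0909 to 0.00608 and TWIST1 -0.0204 to 0.165. CDH2 with olaparib was -0.00466 to 0.0933 and ZEB1 additivity -0.0247 to 0.091. By voom the ranges in the combination against palbociclib were -0.0432 to 0.0567 for VIM, -0.061 to 0.333 for ZEB2, -0.0919 to 0.00442 for SNAI2, -0.0425 to 0.474 for EPCAM and -0.293 to 0.618 for KRT8. In the combination against olaparib voom gave CDH2 -0.00452 to 0.112, FN1 -0.175 to 0.0485, ZEB1 -0.108 to 0.00529 and TWIST1 -0.0312 to 0.166. CDH2 with olaparib was -0.0154 to 0.121, KRT8 with olaparib -0.258 to 0.102 and KRT8 with palbociclib -0.0557 to 0.856. For additivity voom gave ZEB1 -0.0298 to 0.105, ZEB2 -0.279 to 0.117 and KRT8 -0.236 to 0.676.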
